A study of Rattus norvegicus with 6 samples.

Results

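The genes described are the subunits of the AMPA and kainate classes of ionotropic glutamate receptor, Gria1 to Gria4 and Grik1 to Grik5. They were chosen by gene symbol: every probe set that the array's annotation gives to exactly 1 of these 9 genes was taken. All 9 genes were on the array, out of 4736 singly named genes, with 16 of the 8740 probe sets that were not controls. Total RNA was measured on 6 one-colour oligonucleotide arrays of rat spinal cord at about thoracic segment 8. Contused cord (3 arrays) was taken at the epicenter, the point of impact, 35 days after a blunt contusion injury. Uninjured cord (3 arrays) came from the same position in animals without injury. The labels give no strain, sex, age or treatment, name no sham operation and do not say that each array is a separate animal. P-values therefore rest on the spread among arrays, part of which may be technical, and surgery, elapsed time and contusion cannot be told apart.

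AMPA receptors are tetramers of the subunits GluA1 to GluA4, encoded by Gria1 to Gria4, and carry most fast excitatory transmission, in the spinal cord as elsewhere in the central nervous system. The GluA2 subunit, once its messenger RNA has been edited, makes the channel nearly impermeable to calcium. Kainate receptors combine GluK1 to GluK3 (Grik1 to Grik3), which can form channels on their own, with GluK4 and GluK5 (Grik4 and Grik5), which bind kainate with high affinity and reach the surface only with a partner from the other group. Neurons are the main source of these subunits, and some glial cells express them as well.

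Gria2 and Grik4 fell in contused cord, each by 1 of its probe sets, and no other subunit passed the test in either direction. Gria2 fell 2.06-fold and Grik4 fell 1.47-fold. Grik5 had a log2 change close to that of Grik4 but did not pass. Gria1, Gria3, Gria4 and Grik3 had log2 changes between -0.25 and 0.02. Grik1 was too dim on every array to be tested.

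The deposited values are signals on a linear scale. Median signals ran from 122.1 to 126.9 over the 6 arrays, and 73.1% to 76% of probe sets on each array lay above a floor of 61.6, the pooled 25th percentile, to which lower values were raised before the log2 transform. A probe set was tested if it exceeded the floor on 3 or more of the 6 arrays. Of the receptor probe sets 12 passed this filter, 7 for AMPA and 5 for kainate subunits, and 4 did not. Most receptor probe sets were dim: 10 of the 12 lay below the median of all tested probe sets, a mean signal of 175, and Grik4 and Grik5 had those above it. Changes were tested with limma, and a call means a Benjamini-Hochberg adjusted p under 0.05 over all 6705 tested probe sets.

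Over the whole array 1165 probe sets (17.4%) were called. Of the 12 tested receptor probe sets 2 were called lower, where 9.59% of all tested probe sets were lower. None was called higher in limma (0 also at an unadjusted p of 0.05), against 7.79% of all tested probe sets. At an unadjusted p of 0.05 the number lower was 5, against a background of 16.3%. The same 5 probe sets had all contused arrays below all uninjured arrays, which held for 18.2% of all tested probe sets. Taking for each gene its brightest tested probe set, 2 of 8 genes were lower, against 9.91% of all tested genes. Their median log2 change was -0.30, beside -0.02 over all 3955 tested genes.

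**Figure D1:**
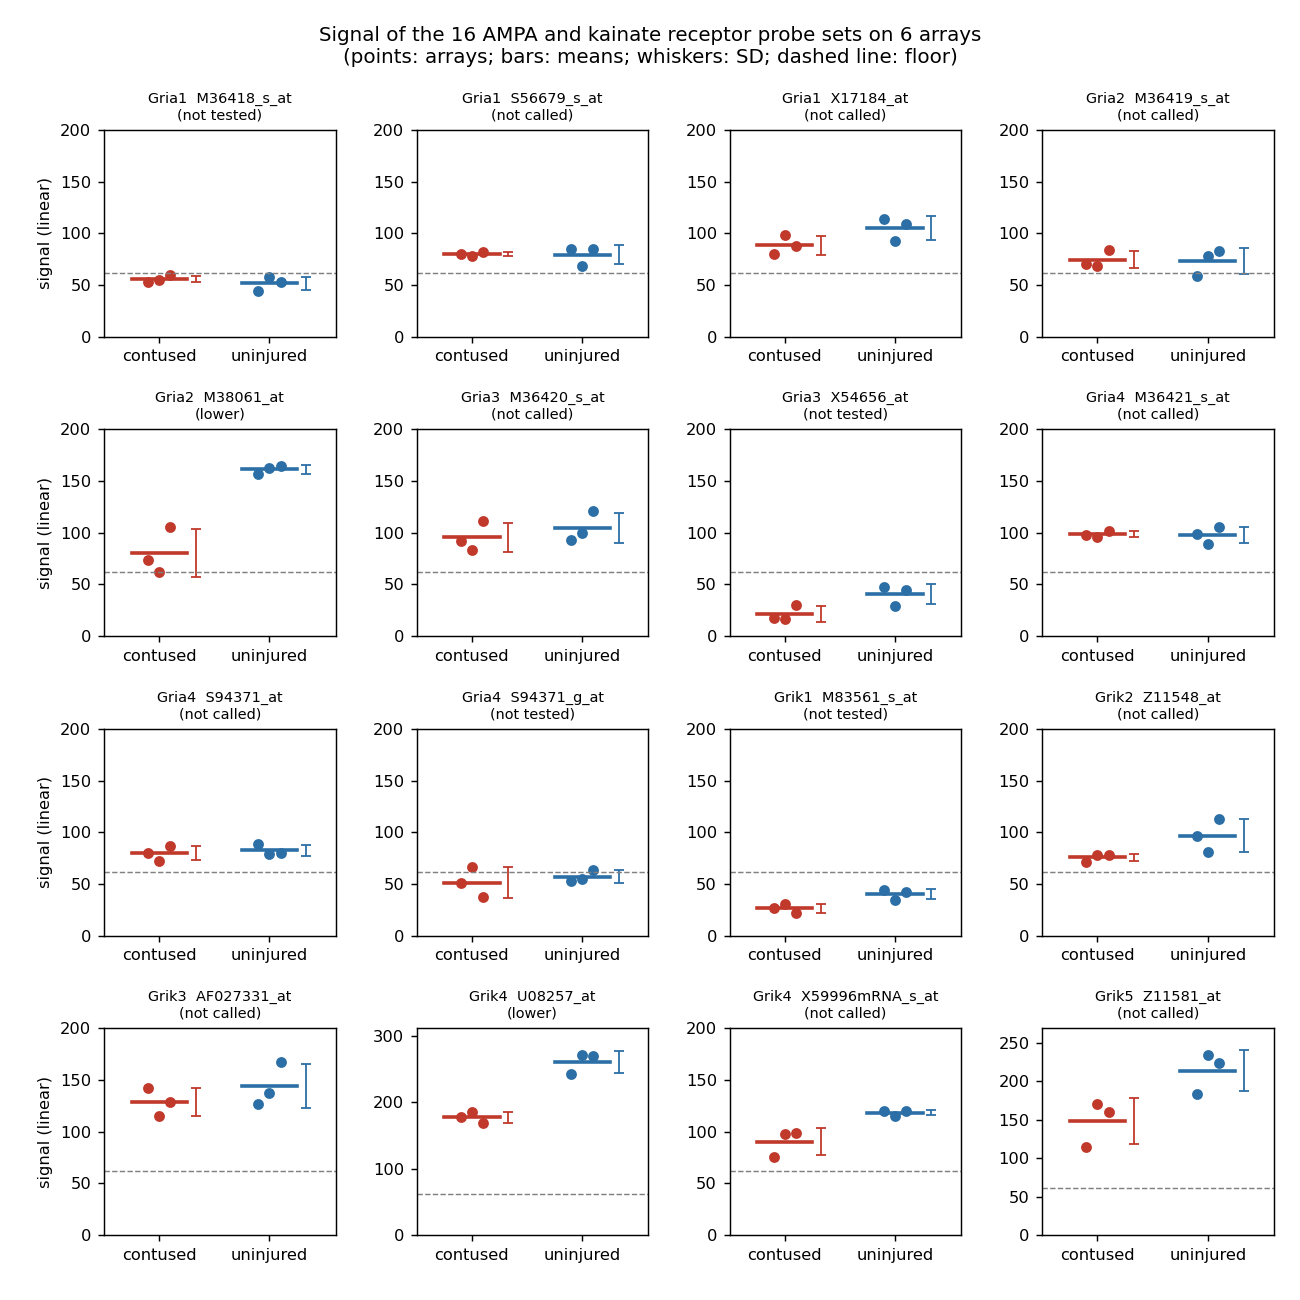
Signal (linear scale) of each of the 16 AMPA and kainate receptor probe sets on the 3 contused and 3 uninjured arrays. Points are arrays, bars are means, whiskers are SDs and the dashed line is the floor of 61.6; the groups stand clearly apart for Gria2 M38061_at and Grik4 U08257_at.

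Among the AMPA subunits, Gria2 M38061_at had signals of 73.6, 61.6 and 106 in contused cord, against 157, 162 and 165 in uninjured cord. Every contused array lay below every uninjured array, and contused array 2 lay at about the floor. The means were 80.4 ± 22.9 in contused and 161 ± 4.26 in uninjured cord (SD, n = 3 each). The log2 change was -1.04 (SE 0.19, limma adjusted p = 0.00387), which ranked 143 among the 6705 tested probe sets ordered from the largest fall. The call was lost when dim probe sets were not filtered out (adjusted p = 0.0582), and a floor at the 50th percentile of all values, above every contused array, gave a log2 change of -0.37.

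A separate probe set for Gria2, M36419_s_at, gave 70.7, 68.5 and 83.6 in contused cord, against 58.4, 77.7 and 82.6 in uninjured cord. These groups overlap, and all of these values lie near the floor. Its log2 change was 0.01, with a 95% interval of -0.30 to 0.33 (limma adjusted p = 0.968). The call for Gria2 thus rests on M38061_at alone. Uninjured array 1 of M36419_s_at was raised to the floor, and its mean signal stood at the 7.86th percentile of tested probe sets; whether it detects the transcript here was not tested.

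Gria1 encodes a subunit known for its regulated insertion at synapses. Gria1 X17184_at had 79.7, 97.9 and 87.6 in contused cord, against 114, 92.3 and 109 in uninjured cord. The groups overlap by 1 array each, and the log2 change of -0.25 (95% interval -0.56 to 0.06) did not pass (limma adjusted p = 0.271). Gria1 S56679_s_at lay between 77.8 and 81.7 in contused and between 68.3 and 84.7 in uninjured cord, with a log2 change of 0.02 (95% interval -0.26 to 0.30). Within arrays, log2 signal of X17184_at minus that of S56679_s_at averaged 0.14 ± 0.17 in contused and 0.41 ± 0.04 in uninjured cord (SD, n = 3 each), without overlap (exact permutation p = 0.1, two-sided, the smallest that 3 against 3 arrays allow). The remaining probe set, M36418_s_at, was at or under 59.2 on every array and was not tested.

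Gria3, on the X chromosome in mammals, was represented by M36420_s_at with 92.3, 83.4 and 111 in contused cord, against 93.4, 100.2 and 121 in uninjured cord. The groups overlap, and the log2 change was -0.13 (95% interval -0.48 to 0.21, limma adjusted p = 0.62). Its dim probe set X54656_at had 17.7, 16.3 and 30.1 in contused cord, against 47.5, 29.3 and 44.7 in uninjured cord. Those values are all under the floor, so no fold is given.

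Gria4 encodes a subunit with fast channel kinetics. Gria4 M36421_s_at had 97.4, 96.4 and 102 in contused cord, against 98.4, 89.3 and 105 in uninjured cord, with overlapping groups. Its log2 change was 0.02 (95% interval -0.26 to 0.30), and that of S94371_at was -0.05 (95% interval -0.32 to 0.22). For both, the interval excludes a fall in signal as large as that of Gria2 M38061_at, but so does that of Gria2 M36419_s_at. Both Gria4 probe sets were dim, at percentiles 22.3 and 12.6 of tested probe sets. Whether they detect the transcript here was not tested. S94371_g_at was above the floor on 1 contused and 1 uninjured array and was not tested.

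Among the kainate subunits all 5 tested probe sets had a log2 change below 0, where 50.6% of all tested probe sets did. Their median was -0.40, and 1 was called lower, against 9.59% of all tested probe sets. In 4 of the 5, all but Grik3, the contused arrays lay below all uninjured arrays, against 18.2% of all tested probe sets. These 5 probe sets stand for 4 genes, since U08257_at and X59996mRNA_s_at both measure Grik4.

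Grik4 U08257_at, the brightest receptor probe set, had 177, 185 and 169 in contused cord, against 242, 270.1 and 269 in uninjured cord. The groups are well apart, and both have a narrow spread. The means were 177 ± 8.1 and 260.3 ± 16.3 (SD, n = 3 each) in contused and uninjured cord, a log2 change of -0.56 (SE 0.14, limma adjusted p = 0.0176). This call was lost when contused array 2 (adjusted p = 0.0519) or uninjured array 3 (0.0832) was left out.

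Grik4 X59996mRNA_s_at had 75.4, 97.8 and 98.4 in contused cord, against 120.1, 116 and 119.6 in uninjured cord. Its groups do not overlap either, but the log2 change of -0.40 (95% interval -0.72 to -0.08) did not pass (limma adjusted p = 0.0861). Both Grik4 probe sets therefore have the same direction, and their log2 signals differed by 0.98 ± 0.23 in contused and 1.13 ± 0.11 in uninjured cord (exact permutation p = 0.4, two-sided).

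Grik5 Z11581_at had 114, 170.1 and 160 in contused cord, against 183, 234 and 224 in uninjured cord. Every contused array lay below the lowest uninjured array, with contused array 1 the lowest. The log2 change was -0.54 (SE 0.18, 95% interval -0.95 to -0.13), and it did not pass (limma adjusted p = 0.0688). It passed when the floor was raised to the 50th percentile of all values (adjusted p = 0.044).

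Grik2 Z11548_at had 71.5, 77.8 and 77.5 in contused cord, against 96.2, 81.2 and 113 in uninjured cord. The groups are separated by a small gap, and the log2 change of -0.34 (95% interval -0.66 to -0.03) did not pass (limma adjusted p = 0.13). Grik3 AF027331_at had 142, 115 and 129 in contused cord, against 127, 137 and 168 in uninjured cord. Its groups overlap, and the log2 change was -0.16 (95% interval -0.51 to 0.20).

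Grik1 M83561_s_at had 26.8, 30.2 and 22 in contused cord, against 44.1, 34.2 and 42.1 in uninjured cord. The contused values are the lower ones, but all 6 are under the floor, so the gene was not tested and no fold is given.

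**Figure D2:**
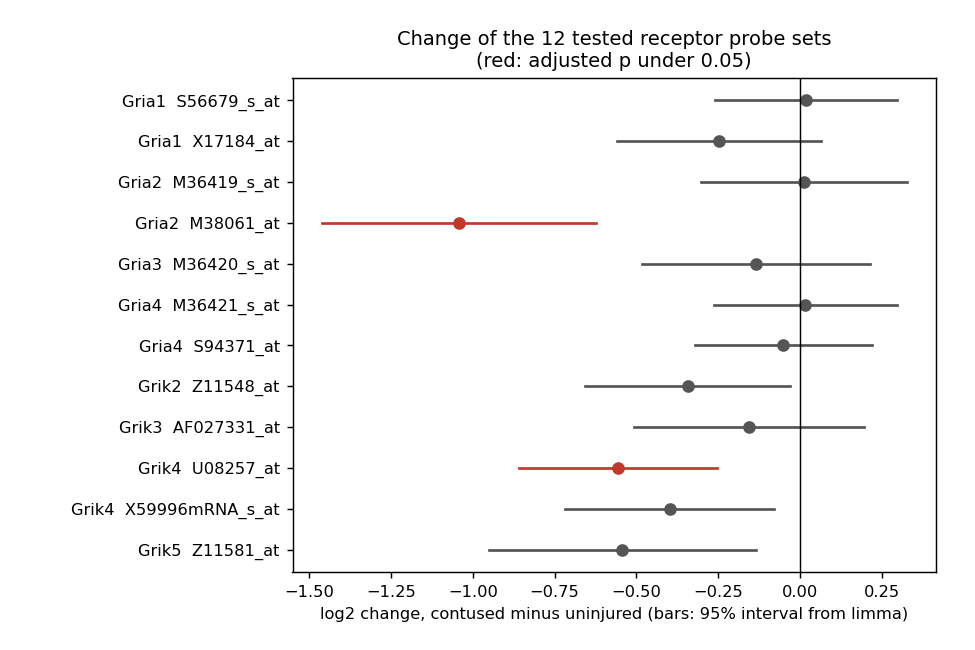
Log2 change (contused minus uninjured) of the 12 tested AMPA and kainate receptor probe sets, with 95% intervals from limma. Gria2 M38061_at at -1.04 and Grik4 U08257_at at -0.56, drawn in red, passed an adjusted p of 0.05.

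Whether the subunits of a class changed unequally was read from differences within arrays, which need no comparison of levels between probe sets. Log2 signal of Gria2 M38061_at minus the mean of the other tested AMPA subunits averaged -0.26 ± 0.33 in contused and 0.66 ± 0.12 in uninjured cord (SD, n = 3 each). The shift of -0.92 separated the groups (exact permutation p = 0.1, two-sided, the smallest possible here). For Gria4 M36421_s_at the same difference was higher in contused cord by 0.49 and for Gria3 by 0.29, also without overlap; Gria2 is among the subunits subtracted in both. For Gria1 the shift was 0.14, with overlapping groups. Among kainate subunits the shifts ran from -0.21 for Grik4 to 0.33 for Grik3, and all 4 overlapped between groups (exact permutation p = 0.2 or more). The 8 differences between a subunit and the others of its class were not adjusted for their number, since none can reach 0.05. The 2 Gria2 probe sets also parted: M38061_at minus M36419_s_at averaged 0.08 ± 0.25 in contused and 1.14 ± 0.19 in uninjured cord, without overlap. With M36419_s_at near the floor, the shift for Gria2 therefore cannot tell a difference between subunits from one between probe sets.

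Promoter sequence from RefSeq (GRCr8), 250 bases before to 50 after the annotated start, matched 6 of the 9 genes: Gria4 and Grik1 to Grik5. The windows of Grik4 and Grik5 are shown because these are the kainate genes with the lowest log2 changes. Capitals mark GC boxes, the letters GGGCGG or, on the opposite strand, CCGCCC.
Grik4 (chr8:52102014-52102313, minus strand): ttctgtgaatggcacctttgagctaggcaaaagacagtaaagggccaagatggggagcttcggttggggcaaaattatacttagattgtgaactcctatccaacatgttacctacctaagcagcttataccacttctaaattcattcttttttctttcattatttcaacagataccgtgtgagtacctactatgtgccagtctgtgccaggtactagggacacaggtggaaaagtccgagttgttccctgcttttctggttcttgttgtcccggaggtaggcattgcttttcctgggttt
Grik5 (chr1:89794860-89795159, minus strand): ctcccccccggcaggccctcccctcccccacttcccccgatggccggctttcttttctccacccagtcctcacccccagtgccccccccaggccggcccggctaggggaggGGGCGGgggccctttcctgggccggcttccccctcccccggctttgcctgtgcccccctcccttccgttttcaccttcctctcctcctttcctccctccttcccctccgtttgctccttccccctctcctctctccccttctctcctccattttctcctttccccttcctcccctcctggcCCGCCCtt

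The Grik4 window holds 0 GC boxes and 4 CG pairs, with a GC content of 44%, and the Grik5 window 2 GC boxes and 11 CG pairs, with 69%. Over all 33469 promoters of the table, 33.1% hold a GC box, the median number of CG pairs is 7 and the median GC content is 51.7%. Neither window holds a TATA box (TATAAA, 14.2% of promoters on either strand) or the core of the cyclic AMP response element (CGTCA, 21.2%). These matches describe letters in a window and are not evidence of binding.

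Cell type markers moved in the same samples. For these lists and those below, the background over all tested genes was 9.91% lower and 7.00% higher. Of 18 tested neuron markers 15 were lower and 0 higher (limma; at an unadjusted p of 0.05 also 0 higher). Their median log2 change was -1.05. Their summed signal was 10540 to 11280 in contused and 20580 to 23610 in uninjured cord. Of the neuron markers on the array, Syt1, a synaptic vesicle calcium sensor, lay at the floor throughout. The brightest, the neurofilament genes Nefl and Nefm, had log2 changes of -0.90 and -0.84. In tissue RNA, sources of a lower signal, among them fewer cells of a type and less RNA per cell, cannot be told apart. The part of neuron number in the receptor values was not tested.

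Within arrays, log2 signal of Gria2 M38061_at minus the mean of the 18 neuron markers was -2.36 ± 0.30 in contused and -2.38 ± 0.04 in uninjured cord (SD, n = 3 each). The groups overlap (exact permutation p = 1, two-sided), and the shift was 0.02. For the brightest probe set of each of the other 7 tested subunits, the same difference was higher on every contused array than on any uninjured array. These shifts ran from 0.51 for Grik4 and 0.52 for Grik5 to 0.93 for Gria3 and 1.08 for Gria4, each at the smallest exact p of 0.1. The marker mean itself was 8.65 ± 0.10 in contused and 9.71 ± 0.08 in uninjured cord, a shift of -1.065. A probe set without change would therefore shift up by about that much, and the separation alone does not mark these subunits out. Its share over all tested probe sets was not computed. The contrast of Gria2 with these genes rests on M38061_at: for Gria2 M36419_s_at, near the floor, the difference was -2.44 ± 0.06 in contused and -3.52 ± 0.14 in uninjured cord, a shift of 1.08 without overlap. Of these 7 probe sets, 5 lay below the median signal of all tested probe sets. The brightest neuron markers, Nefl and Nefm, averaged 1764 and 1500 in contused and 3292 and 2693 in uninjured cord. Not every marker was bright: Syn2, Nrgn and Stx1a also lay below that median, with log2 changes of -1.30, -2.06 and -0.16. Nrgn was at the floor on all contused arrays, so its fall is at least that large. The part of brightness in the differences from the marker mean was not tested.

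**Figure D3:**
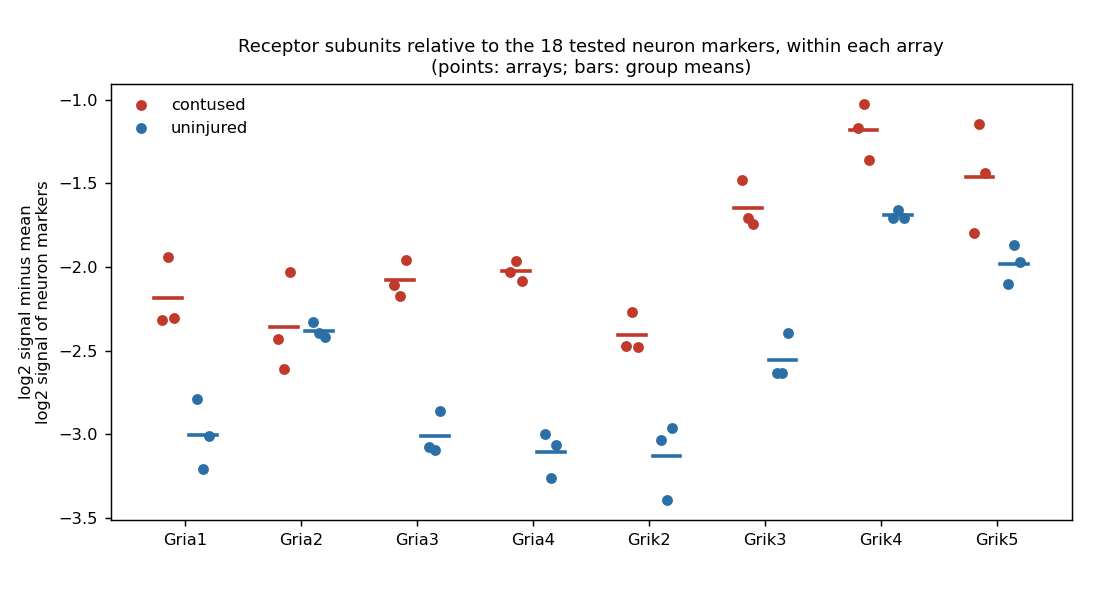
Log2 signal of the brightest tested probe set of each of 8 subunits minus the mean log2 signal of 18 neuron markers on the same array, contused left of uninjured. Points are arrays and bars are means; the groups overlap for Gria2, drawn by M38061_at alone, and are apart for the other 7. The marker mean itself was lower in contused cord (shift of -1.065), which raises the difference for any probe set without change. Heights are not comparable between genes.

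Other marker lists moved less or the other way. Of 6 tested motor neuron genes 2 were lower and 0 higher (limma; 0 also at an unadjusted p of 0.05). The number lower was 1 without contused array 2 and 1 without uninjured array 3. Their summed signal was 1279 to 1364 in contused and 1687 to 1859 in uninjured cord. The brightest were Prph, the gene of the intermediate filament protein peripherin, with a log2 change of -0.25, and Slc18a3, the vesicular acetylcholine transporter, with -0.57. Of 12 microglia and macrophage markers 11 were higher, with summed signals of 9148 to 9650 in contused and 3355 to 3830 in uninjured cord. Their brightest genes, the protease gene Ctss and the lectin gene Lgals3, had log2 changes of 0.75 and 3.07.

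Markers of glia are given because some glial cells express these subunits. Their counts stand beside 9.91% of all tested genes lower and 7.00% higher. Of 6 oligodendrocyte progenitor markers 1 was lower and 0 higher (limma; at an unadjusted p of 0.05 also 0 higher), with summed signals of 2415 to 2495 in contused and 2277 to 2617 in uninjured cord. Their brightest genes, Bcan and Sox10, had log2 changes of 0.13 and -0.04. Of 9 astrocyte markers 2 were higher, with summed signals of 12090 to 13250 and 11900 to 12710 in contused and uninjured cord. Their median log2 change was 0.09. The brightest, the glycolytic enzyme gene Aldoc and the calcium-binding protein gene S100b, were not among those called (log2 changes of -0.12 and -0.06). The count of astrocyte markers was 0 or 1 with any 1 array left out. Of 9 oligodendrocyte markers 5 were lower, with summed signals of 14510 to 15640 in contused and 17880 to 19040 in uninjured cord. Their median log2 change was -0.58. The brightest, the myelin genes Mbp and Cnp, were not among those called (log2 changes of 0.0038 and -0.12). No Schwann cell marker was called (0 of 4 in limma, 2 higher at an unadjusted p of 0.05), with summed signals of 3899 to 4931 in contused and 3137 to 3403 in uninjured cord. Pmp22, a myelin protein gene, and Ngfr, the low-affinity neurotrophin receptor, had log2 changes of 0.40 and 0.31. The part of glial cells in the receptor values was not tested.

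Proteins that assemble, anchor, modify or feed these receptors were taken as a list of 67 genes, of which 44 were on the array and 40 were tested. Of these, 12 were lower, against the background of 9.91% of genes, and 0 were higher in limma (2 at an unadjusted p of 0.05), against 7.00% of genes. The median log2 change of the list was -0.18, beside -0.02 over all tested genes.

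Of the auxiliary subunits, both tested genes were lower. Cnih2, the cornichon protein that slows AMPA receptor closing, had 101 ± 19.8 in contused and 224 ± 25.5 in uninjured cord (log2 change -1.16, SE 0.18, adjusted p = 0.00154). Olfm1, a secreted olfactomedin found in AMPA receptor complexes, had a log2 change of -0.68 (adjusted p = 0.017). The Olfm1 call was lost without contused array 1 (adjusted p = 0.0646), contused array 2 (0.0802), uninjured array 1 (0.0513), uninjured array 2 (0.0519) or uninjured array 3 (0.0643).

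Of 20 tested anchoring and trafficking genes 5 were lower. Nptx1, a neuronal pentraxin that gathers AMPA receptors at synapses, had 91.4 ± 10.5 in contused and 266 ± 18.1 in uninjured cord (SD, n = 3 each), 2.92-fold lower (log2 change -1.55, adjusted p = 0.000106). Its other tested probe set had a log2 change of 0.08 and did not pass. Nsf, an ATPase that binds GluA2, fell 2.04-fold, with both of its probe sets past the threshold. Dlg4, the postsynaptic scaffold PSD-95, fell 1.62-fold and the endosomal GTPase gene Rab5a 1.63-fold; a dimmer Rab5a probe set did not pass. Lin7b, a scaffold gene, was at the floor on all contused arrays and at least 2.19-fold lower. The brightest genes of the list that did not pass were Sdcbp, a PDZ adaptor (log2 change -0.07), the pentraxin gene Nptx2 (-0.26) and Napa, a cofactor of Nsf (-0.12). The directions of Sdcbp and Napa turned with quantile normalization, at 0.048 and 0.014, and that of Sdcbp also without contused array 2 or uninjured array 1, at 0.028 and 0.021.

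Kinases and phosphatases known to act on these receptors were lower in 4 of 12 cases. Ppp3ca, a catalytic subunit of calcineurin, fell 2.06-fold and Prkcb, a protein kinase C gene, 1.88-fold. The protein kinase A genes Prkacb and Prkaca fell 1.69-fold and 1.65-fold. The calcineurin gene Ppp3cb and the protein kinase C gene Prkca were not called (log2 changes of -0.25 and 0.33). Ppp3cb lay under the floor on contused arrays 1 and 2. Prkcb did not pass without contused array 2 (adjusted p = 0.0523). Of the 3 tested Prkcb probe sets 1 did not pass, nor did 1 of the 2 for Prkacb, and none was called higher. Camk2d and Ppp3r1, of CaM kinase II and calcineurin, were not called by their brightest probe sets (log2 changes of -0.06 and -0.47), but each had 1 dimmer probe set called lower (-0.59 and -0.82). In the glutamate supply group, Gls2, a glutaminase, fell 1.68-fold, the 1 call among 3 tested genes. That call was lost with a floor at the 50th percentile of all values (adjusted p = 0.383).

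Neither tested RNA editing enzyme passed in limma (1 lower at an unadjusted p of 0.05). Adarb1, the enzyme that edits the GluA2 message, had 118 ± 44.6 in contused and 173 ± 29.8 in uninjured cord (log2 change -0.60, SE 0.24, adjusted p = 0.12); it was singled out for its role after its value was seen. These arrays do not measure editing. The 1 tested delta receptor gene, Grid1, was close to the floor, with a log2 change of -0.03.

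**Figure D4:**
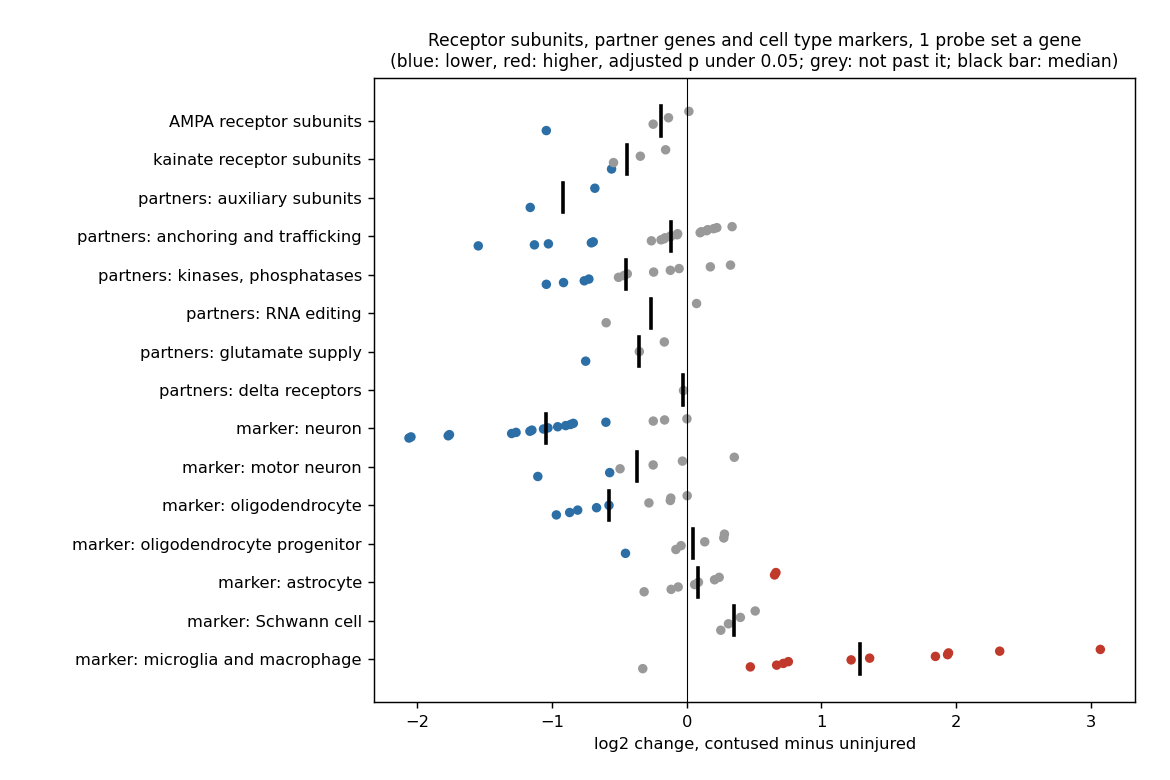
Log2 change (contused minus uninjured) of each gene of the receptor, partner and marker lists, by its brightest tested probe set. Blue genes were lower and red genes higher at an adjusted p of 0.05, grey genes passed in neither direction, and black bars are medians; the receptor medians of -0.19 (AMPA) and -0.44 (kainate) lie between 0 and the neuron median of -1.05.

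The genes whose log2 signals over the 6 arrays were most like those of Gria2 M38061_at were Slc32a1 (Pearson r = 0.998), the axonal transport adaptor gene Fez1 (0.997) and G3bp2, a stress granule protein gene (0.994). Slc32a1, the vesicular transporter for inhibitory amino acids, had 162, 124.5 and 259.5 in contused cord, against 518, 561 and 564 in uninjured cord. As for Gria2, contused array 2 was the lowest and contused array 3 the highest of the injured group. That shared order follows from choosing the gene by its correlation over the same arrays. For Grik4 U08257_at the most like were Tnfrsf11b, which encodes osteoprotegerin (0.995), the calcium sensor gene Hpcal1 (0.995) and Fdps, an enzyme gene of the mevalonate pathway (0.995). With 2 groups, any gene that differs between them correlates: r exceeded 0.9 for 307 genes with Gria2 and 346 with Grik4, out of 3947 compared.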

How the data were processed

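The deposited table holds 1 intensity per probe set and array, on a linear scale as read from the values. The authors' summarisation, background correction and scaling are not given in the sources used here. The 2%-trimmed means of the arrays differed by 8.94%, within a 10% limit, so no scaling was added. No column (0) belonged to another sample. Genes were named by the platform annotation, updated by gene identifier to GRCr8 symbols; 7006 probe sets carried 1 gene, 308 several and 1426 none, and 59 controls were left out. Signals were floored at 61.6 (log2 5.94) and compared two-sided, without covariates, by lmFit and eBayes (intensity trend) of limma 3.58.1 under R 4.3.3. The number of arrays, 3 a group, limits the precision. A gene with several probe sets is represented by its brightest tested one, and disagreements are stated. The steps were tested on simulated data. The changes planted there were in brighter probe sets and larger than most receptor changes. The simulation therefore does not cover the dimmest receptor probe sets. Alternatives were other floors, scalings, filters, variance models, a replicate block and each array left out. Same-numbered arrays did not deviate together (correlations of 0.0415, 0.222 and -0.244), so they were not treated as pairs. Named genes are all members, the partner genes past the threshold with the 3 brightest others, the 2 brightest of each marker list and the 3 genes most like 2 of the members. Syt1, Syn2, Nrgn, Stx1a, Adarb1, Grid1, Camk2d, Ppp3r1, Ppp3cb and Prkca were named outside this rule, after their values were seen. Members and lists were chosen with earlier results of these data known. Plots used Python 3.11.15 and matplotlib 3.10.9.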

Additional observations from a re-analysis of the deposited data

How the results depend on the processing

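Gria2 M38061_at kept its direction under all 14 alternatives (log2 change -1.26 to -0.37, the smallest with a floor at the 50th percentile of all values) and passed in 13; with no filter on dim probe sets its adjusted p was 0.0582. Grik4 U08257_at stayed between -0.61 and -0.52 and passed in 12, and Grik5 passed in 2, the floor at the 50th percentile and the replicate block (adjusted p = 0.0352). The number of receptor probe sets lower was 1 with no filter and 1 to 2 with 1 array left out. For all tested probe sets the numbers were 396 lower and 266 higher with no filter, 383 to 776 lower and 276 to 484 higher with 1 array left out. The block on the replicate number, which the data do not bear out as a pairing, gave 1200 called probe sets in all against 1165 without it. Without the filter, 2035 dim probe sets enter the fit, and Olfm1, Nsf and Prkcb also lost their calls (adjusted p = 0.0767, 0.0669 and 0.0856). Probe sets with log2 changes near 0 turned direction, none past the threshold. With quantile normalization, Gria1 S56679_s_at gave -0.044, Gria2 M36419_s_at -0.043, Gria4 M36421_s_at -0.023, Sdcbp 0.048 and Napa 0.014. With 1 array left out, S56679_s_at ran from -0.085 to 0.070, M36419_s_at from -0.115 to 0.097, M36421_s_at from -0.047 to 0.073, Gria4 S94371_at from -0.114 to 0.016 and Sdcbp from -0.201 to 0.028. The alternatives for partner genes and marker lists were chosen after seeing the data. Signals close to the floor limit what can be seen for most of these subunits.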
